A study of Tupaia belangeri with 6 samples.

Results

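The genes described here are 36 members of the synaptic vesicle release machinery, chosen by gene symbol. Every row of the 6 count matrices whose symbol is on the list belongs to the set. The rule uses no measured value, but the list was drawn up with earlier results of these data known. Each of the 36 symbols was found exactly once among 83605 features. The data are single-nucleus RNA counts of the hippocampus of tree shrews (TSs, Tupaia belangeri), a small mammal close to primates, with 3 libraries titled Normal (control TSs) and 3 titled AD. The AD animals had Alzheimer's-like pathology (ALP) that arose during natural ageing. No transgene or agent is named for either group, and the study picked ALP animals from a larger cohort for a long time in a pipeline maze, so the groups were set by behaviour and not by a lesion. Each library came from 1 animal, and the labels give neither the age nor the sex of the animal behind a library.

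At a synapse, vesicles filled with transmitter dock at the active zone, are primed, fuse when calcium enters, and are then retrieved from the membrane. SNARE proteins (SNAP25, syntaxin STX1A and the synaptobrevins VAMP1 and VAMP2) drive the fusion, synaptotagmins (SYT) sense calcium, complexins (CPLX) hold the primed SNARE complex, and NSF takes spent complexes apart. RIM (RIMS), Munc13 (UNC13), bassoon (BSN), piccolo (PCLO) and ERC2 build the active zone, synapsins (SYN), synaptophysin (SYP), synaptoporin (SYNPR) and SV2 proteins sit on the vesicle, and dynamin (DNM1), amphiphysin (AMPH), SNAP91 and synaptojanin (SYNJ1) serve retrieval. Their transcripts are used as signs of neurons, so their counts in glial nuclei also serve here as a gauge of neuronal RNA. Such RNA cannot be told apart in these counts from transcripts that glia make themselves.

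After the filters, 1614 to 7022 nuclei remained per library, with medians of 1502.5 to 2187.5 UMIs (unique molecular identifiers, each a counted transcript molecule). Clusters were built without the members or rows named after them, and classes were named from markers that include no member, so "like" is added to each name. The glial side held 7860 Oligo-like (oligodendrocyte), 2713 OPC-like (oligodendrocyte precursor), 3229 Astro-like, 1602 Micro-like and 496 Endo-like (endothelial) nuclei. The neuronal side held 2704 Gran-like (granule cell), 2959 Pyra-like (pyramidal) and 2453 InN-like (interneuron) nuclei. Of the interneuron markers, GAD2 and SLC32A1 had no UMI in any class, and the InN-like clusters rested on others such as SST, LAMP5, ADARB2 and VIP. Some 3072 nuclei with a median of 772 UMIs formed clusters that stayed unnamed and are called low-depth clusters, and Control 3 held 1504 of them. A single transcript, LINC-FRMD8-1, took 14.9 to 20.6% of UMIs in control and 22.8 to 29.0% in ALP libraries. Single members were therefore compared between ALP and control as CPM (UMIs scaled to the same total per library) with TMM factors. These factors rest on most genes rather than on the total. Glia-to-neuron ratios and levels in the low-depth clusters had no TMM factors, and their totals include this transcript. With 1 library per animal, p-values of ALP against control measure the spread between 3 animals a group. Those of comparisons between classes rest on differences within each of the 6 libraries.

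Not every member could be measured. DNM1 and SYT11 had no UMI in any named class, although rows named DNM1li1 and SYT11li1 held 3848 and 3665 UMIs there. RIMS1 had 36 UMIs in these nuclei and RIMS1li1 had 40969, while UNC13A had 1029 and UNC13Ali1 3439. What the suffix stands for is not given in the sources used here, so such rows were kept apart from the members. They were added only in an alternative of the fits, and never to the sum of members used as a gauge. CPLX3 with 25, STX1A with 9 and UNC13B with 15 UMIs in neuronal nuclei were also too rare to test. Antisense rows named after members were counted separately, and since the use of strand is not stated, SYN2, with 2779 UMIs on antisense rows against 1216 on its own, and UNC13A, with 1035 against 1029, are uncertain.

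**Figure D1:**
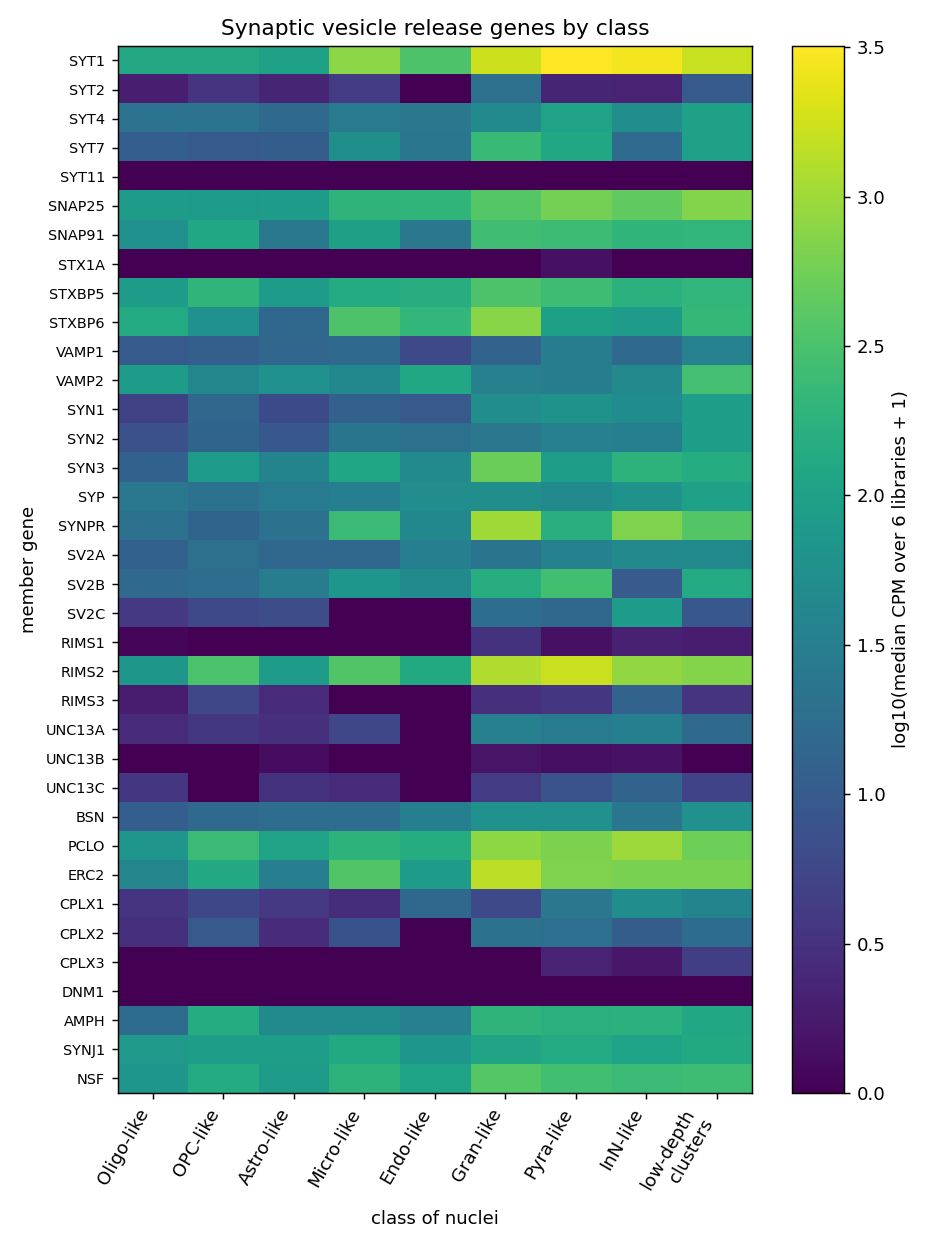
Level of each of the 36 members (rows) in 8 named classes and the low-depth clusters (columns), as log10 of the median CPM over 6 libraries plus 1, without TMM factors. Most members are brightest in the 3 neuronal columns, VAMP2 is brighter in Oligo-like and Endo-like than in neuronal columns, and DNM1 and SYT11 are empty throughout.

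The neuronal sums were set against the glial sums of the same 6 libraries to ask how far the machinery is neuronal in these data. Members that passed the filter were higher in neuronal nuclei, by log2 fold changes of 0.59 to 3.95, with the exception of VAMP2, which was higher in the glial sums. Of the 36 members 30 passed the filter on low counts, and all 30 were called by edgeR's quasi-likelihood test with the library as a block (Benjamini-Hochberg adjusted p under 0.05 and log2 fold change beyond 0.25), 29 of them higher in neuronal nuclei. Of 17481 features tested, 66.6% were called in this comparison and 33.9% were called higher in neuronal nuclei. A member that passed the filter only through its neuronal level had to differ, so the count describes the set and is no test of it. The median log2 fold change of the 30 was 2.07, against 0.01 over all features tested.

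SYNPR, a membrane protein of the vesicle, had the largest fold in this fit: its level was 396 to 715 CPM in neuronal nuclei (median 620.3) and 25.9 to 44.0 CPM in glial nuclei (median 40.0). UNC13A, which primes vesicles, followed with 23.7 to 46.1 CPM in neuronal and 1.46 to 3.60 CPM in glial nuclei, resting on 62 glial UMIs. SYT1, the main fast calcium sensor, ranged from 2468 to 3073 CPM in neuronal and from 154 to 240 CPM in glial nuclei. In each of these the lowest neuronal library lay far above the highest glial library. The log2 fold changes were 3.95 ± 0.18 for SYNPR, 3.89 ± 0.21 for UNC13A and 3.83 ± 0.12 for SYT1 (± SE, 6 libraries), with adjusted p of 3.6e-09, 1.3e-08 and 3.0e-10 in edgeR. The value of SYNPR moved with the nuclei kept, to 2.36 without the upper limit on genes, where UNC13A and SYT1 had 3.53 and 3.45, and to 4.89 with a deep Micro-like cluster of 201 nuclei left out, and 475 of its 958 glial UMIs were in Micro-like nuclei. SV2C, a vesicle transporter-like protein, and ERC2, a scaffold of the active zone, had log2 fold changes of 3.55 ± 0.20 and 3.33 ± 0.14.

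At the other end stood VAMP2, the synaptobrevin that most forebrain vesicles carry. Its level was 29.5 to 47.6 CPM in neuronal nuclei (median 40.9) and 43.9 to 105 CPM in glial nuclei (median 62.3). The ranges overlapped at their edges, and the glial level was the higher by a log2 difference of 0.80 ± 0.13 (neuronal over glial -0.80, adjusted p = 0.0002 in edgeR). SYNJ1, a lipid phosphatase of vesicle retrieval, differed least among the neuronal members, with 116 to 142 CPM in neuronal and 80.0 to 93.4 CPM in glial nuclei (log2 fold change 0.59 ± 0.08). SYP had 46.1 to 71.0 CPM in neuronal and 18.5 to 28.5 CPM in glial nuclei, and its log2 fold change of 1.20 ± 0.10 stood beside 1.21 ± 0.23 for VAMP1 and 1.26 ± 0.10 for STXBP5 (tomosyn, which blocks SNARE assembly).

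**Figure D2:**
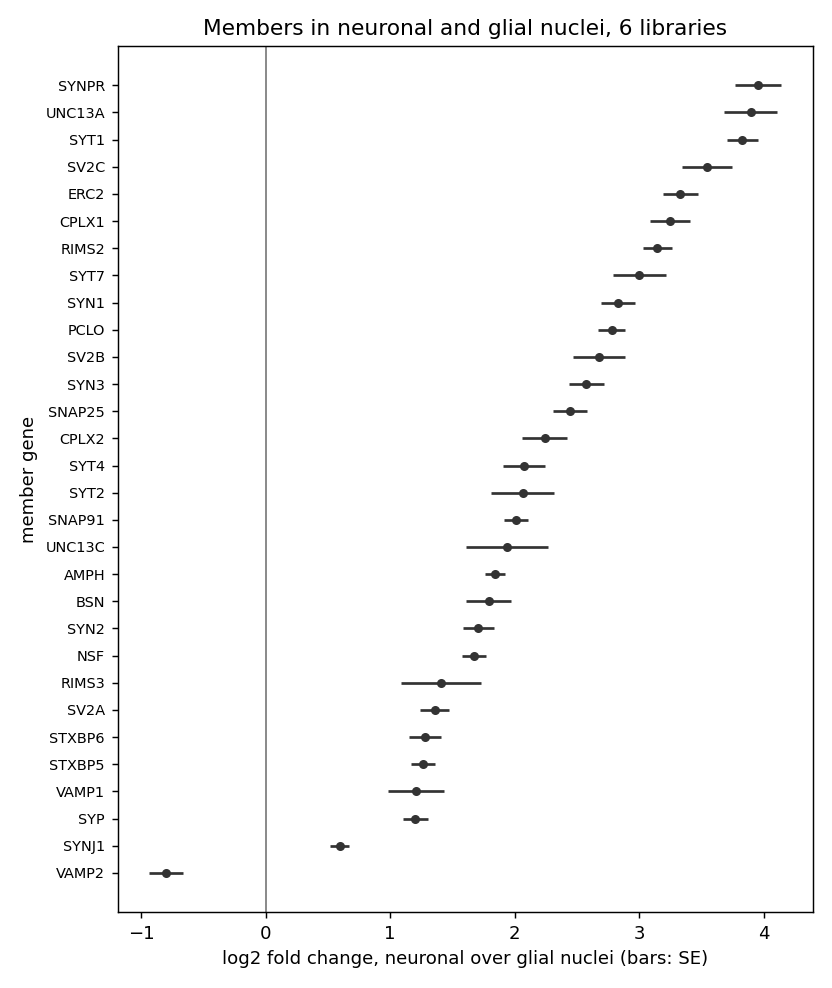
Log2 fold change of neuronal over glial nuclei (x axis, bars are SE, 6 libraries) for the 30 members tested (y axis), from the fit with the library as a block. VAMP2 lies left of 0 at -0.80 and SYNPR farthest right at 3.95.

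As a gauge of neuronal RNA in glia, the summed CPM of the 36 members in each glial class was divided by that in all neuronal nuclei of the same library. The sum weighs members by their counts. In neuronal nuclei SYT1 held 78986 UMIs, RIMS2 38395, ERC2 25758 and PCLO 25313, the largest counts among the members. Neuronal nuclei held 8061 to 9511 member CPM. Their mix differed: Gran-like nuclei were 987 of 1971 in Control 1, 60 of 524 in Control 2 and 308 of 1075 in Control 3. In ALP 1 to 3 they were 370 of 1487, 485 of 1715 and 494 of 1344. The part of this mix in the ratio was not tested. Astro-like nuclei were lowest, at 10.4 to 15.3% of the neuronal level (median 11.6%), and Oligo-like nuclei were close to them at 10.5 to 16.1% (median 12.8%). Their member sums were 892 to 1360 and 1002 to 1429 CPM, without the rows named as copies. RIMS1li1 alone had 88.3 to 179 CPM in Astro-like and 505 to 632 CPM in Oligo-like nuclei. The ratio with such rows added was not computed. OPC-like nuclei stood at 20.5 to 26.3% and Endo-like nuclei at 16.9 to 29.6%, the latter from as few as 27 nuclei in ALP 1. Micro-like nuclei were highest, at 26.2 to 48.9%, but stood at 17.9 to 25.2% outside a deep cluster described below. Those other Micro-like nuclei lay below OPC-like nuclei in Control 1 to 3 and ALP 1, and above them in ALP 2 and ALP 3. In every library the Micro-like and OPC-like values lay above the Oligo-like and Astro-like values.

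The same ratio was taken for 11 neuron genes that are no members. NRGN, GAD2, SLC32A1, NEFL and GRIN1 had no UMI, so it rested on RBFOX3, SLC17A7, CAMK2A, GAD1, NEFM and STMN2. Astro-like nuclei ranged from 13.2 to 23.2%, Oligo-like from 13.4 to 32.7%, OPC-like from 11.7 to 22.9%, Micro-like from 26.6 to 40.5% and Endo-like from 32.2 to 123%. OPC-like nuclei thus held a larger share of the neuronal level for the members than for the other neuron genes in all 6 libraries, and Oligo-like and Astro-like nuclei a smaller share. Few UMIs of these neuron genes lay behind some values. Endo-like nuclei held 10 (ALP 1) to 67 (Control 1) per library, and the 123% rested on 37 UMIs in Control 2. In that library OPC-like nuclei held 32 and Micro-like nuclei 17.

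Taken member by member, the share of the neuronal level varied widely within a class. Over the 30 members tested, the medians across libraries ran in Oligo-like nuclei from 3.66% for SYNPR to 233% for VAMP2, and 12 members were under 10%. In Astro-like nuclei they ran from 3.62% for ERC2 to 165% for VAMP2, with 9 members under 10%. SYT1 stood at 5.08% of its neuronal level in Oligo-like, 3.71% in Astro-like and 5.17% in OPC-like nuclei, whereas in the same order SYP stood at 44.5%, 51.6% and 41.1% and SYNJ1 at 63.6%, 76.9% and 71.3%.

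The low-depth clusters resembled neurons more than glia in these genes: their member level was 72.1 to 86.8% of the neuronal level of the same library, and the other neuron genes stood at 140 to 323%. VAMP2 reached 300 to 1317% of its neuronal level there (median 747%), and SV2C 18.9% in the median.

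**Figure D3:**
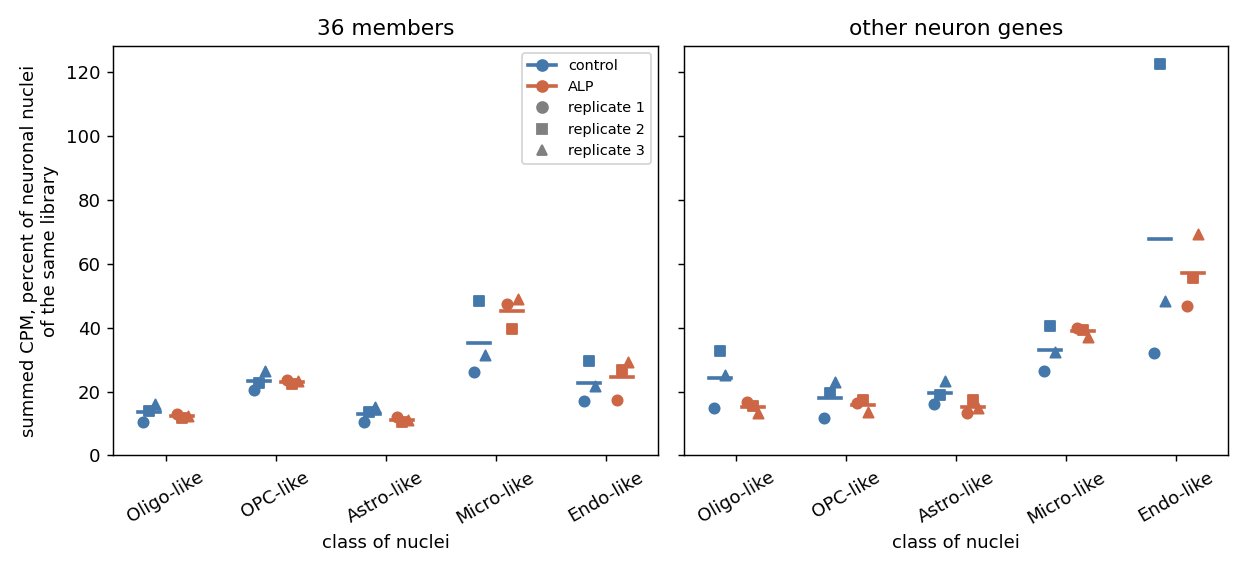
Summed CPM of the members (left) and of the other neuron genes (right) in each glial class, in percent of all neuronal nuclei of the same library (y axis). Points are libraries (shape gives the replicate number), lines are means of 3, and the control and ALP points overlap in each class and panel. Micro-like nuclei are highest on the left at 26.2 to 48.9%, and stood at 17.9 to 25.2% outside their deep cluster (not drawn apart).

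Depth differs between classes, so detection was also compared after thinning each nucleus to 1000 UMIs, which left out 851 control and 1535 ALP glial nuclei and 164 control and 101 ALP neuronal nuclei. The median depth was 1510 UMIs in glial and 3737.5 UMIs in neuronal nuclei. After thinning, SYT1 had a UMI in 78.1% of Gran-like, 88.9% of Pyra-like and 88.2% of InN-like nuclei (medians of 6 libraries; 92.8%, 96.8% and 98.3% unthinned). In Oligo-like, OPC-like and Astro-like nuclei, which are not known for SYT1, the thinned share was 10.9%, 9.36% and 8.16% (13.8%, 15.3% and 13.7% unthinned). SNAP25 gave 43.2% in Pyra-like and 8.38% in Oligo-like nuclei after thinning, and 81.1% and 11.8% before. VAMP2 was the reverse, with 3.09% of Pyra-like and 8.07% of Oligo-like nuclei after thinning, although 10.8% and 11.1% held a UMI before it.

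The glial classes were then compared with each other, member by member. Of 22 members that passed the filter in glial sums, 19 differed among the 5 glial classes (edgeR F test with the library as a block, adjusted p under 0.05), beside 87.8% of 10365 features. A member could pass the filter through a single class where it is high, so the count describes the set and is no test of it. SYP, SV2A and SYT4 did not pass the test (adjusted p = 0.15, 0.22 and 0.27). The members lowest in p were STXBP6, AMPH, SYNPR, SYT1, SYN3 and SNAP91. STXBP6 (amisyn, a SNARE-binding protein) had adjusted p = 2.8e-24, with 179 to 475 CPM in Micro-like, 105 to 202 CPM in Oligo-like, 55.9 to 246 CPM in Endo-like, 50.4 to 82.5 CPM in OPC-like and 7.40 to 22.04 CPM in Astro-like nuclei. Oligo-like and Astro-like libraries therefore did not overlap for STXBP6, although the summed members put these classes side by side.

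AMPH was highest in OPC-like nuclei, at 143 to 193 CPM (median 152), which overlapped the 158 to 220 CPM of Gran-like nuclei. It stood at 46.7 to 60.9 CPM in Astro-like and 16.5 to 27.3 CPM in Oligo-like nuclei (adjusted p = 8.4e-22, edgeR). SNAP91, a clathrin assembly protein, was likewise highest in OPC-like nuclei, at 103 to 135 CPM, against 45.0 to 74.6 CPM in Oligo-like and 13.0 to 31.6 CPM in Astro-like nuclei. PCLO and STXBP5 also had their highest glial median in OPC-like nuclei, 255 and 206 CPM. SYN3, a synapsin, ranged from 69.3 to 102 CPM in OPC-like and from 0 to 16.2 CPM in Oligo-like nuclei, and Control 2 with no UMI of SYN3 had only 159 Oligo-like nuclei.

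SYT1 and SYNPR were highest in Micro-like nuclei. SYT1 had 642 to 848 CPM there, against 129 to 247 CPM in Oligo-like and 95.1 to 213 CPM in Astro-like nuclei, and SYNPR had 105 to 289 CPM against 19.0 to 25.6 and 18.2 to 32.9 CPM (adjusted p = 4.8e-21 and 4.5e-21, edgeR). In all, 12 of the 22 members had their highest glial median in Micro-like nuclei. The matching share over all features was not computed, so this count describes the members and is no test of them. The Micro-like class joins a cluster of 1401 nuclei with a deep cluster of 201 nuclei led by genes such as CLEC6A, LCP2 and GPNMB, which also showed 5 granule cell markers. The deep cluster had a median of 3432 UMIs, and its member level was 61.9 to 92.2% of the neuronal level, against 17.9 to 25.2% in the other Micro-like nuclei. In it 14.4% of nuclei were marked as doublets, at 43.9, 0 and 15% in Control 1 to 3 and 2.86, 6.38 and 8.33% in ALP 1 to 3. Without the marked nuclei its member level was 67.5 to 92.2% of the neuronal level.

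By plain CPM, without TMM factors, SYNPR had 516 to 879 CPM in the deep cluster and 5.6 to 46.1 CPM in the other Micro-like nuclei, and ERC2 had 530 to 1082 CPM and 25.7 to 101 CPM. SYT1 did not split so: it had 1140 to 1356 CPM in the deep cluster and 425 to 737 CPM in the other Micro-like nuclei, which was still above its median of 101 CPM in Astro-like nuclei. STXBP6 also kept 167 to 425 CPM outside the deep cluster, and SYNJ1 112 to 163 CPM. With the deep cluster left out, 3 of 22 members (SYT1, STXBP6 and SYNJ1) had their highest glial median in Micro-like nuclei, against 12 by the same plain CPM with it. Neither count has a share over all features beside it.

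The 3 neuronal classes were compared in pairs to see which neurons carry which members. The classes differed in several isoforms: SV2B and SYT7 were nearly missing from InN-like nuclei, SV2C and CPLX1 were highest there, and SYT2, SYNPR and STXBP6 were highest in Gran-like nuclei. Of 29 members tested, 17 differed between Pyra-like and Gran-like nuclei, 10 of them higher in Pyra-like (edgeR, same rule), beside 34.6% of features in all, 18.6% higher and 16% lower. Between InN-like and Gran-like nuclei 23 differed, 10 of them higher in InN-like, beside 48.3% in all, 25% higher and 23.3% lower. Between InN-like and Pyra-like nuclei 18 differed, 7 of them higher in InN-like, beside 37.2% in all, 18% higher and 19.2% lower. A member could pass the filter through a single class where it is high, so these counts describe the set and are no test of it. The Pyra-like class was made up differently in Control 3, which had 8 and 1 nuclei in clusters that held 656 and 502 over all libraries, while 149 and 106 of its 284 Pyra-like nuclei lay in a pair of clusters that every library shared.

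Among vesicle proteins, SV2B had 198 to 414 CPM in Pyra-like (median 309), 113 to 202 CPM in Gran-like (median 158) and 9.68 to 19.0 CPM in InN-like nuclei (median 10.5). The InN-like libraries lay below every Gran-like and Pyra-like library, with log2 fold changes of -4.63 ± 0.18 for InN-like over Pyra-like and -3.75 ± 0.19 over Gran-like nuclei. The InN-like median of SV2B was also below its Oligo-like median of 18.3 CPM. SV2C went the other way, with 78.4 to 166 CPM in InN-like nuclei against 0 to 20.2 CPM in Gran-like and 10.3 to 26.3 CPM in Pyra-like nuclei (log2 fold changes 2.53 ± 0.19 and 2.54 ± 0.18). SYNPR had 909 to 1322 CPM in Gran-like, 507 to 780 CPM in InN-like and 47.6 to 286 CPM in Pyra-like nuclei, where Control 1 was lowest.

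Among calcium sensors, SYT7, which acts in slow and asynchronous release, had 183 to 346 CPM in Gran-like, 114 to 205 CPM in Pyra-like and 9.12 to 39.4 CPM in InN-like nuclei. SYT7 thus followed SV2B in its low InN-like level, with a log2 fold change of -3.71 ± 0.20 against Gran-like nuclei. SYT2 was a Gran-like transcript at 11.5 to 36.1 CPM, with 0 to 4.55 CPM in Pyra-like nuclei (log2 fold change -3.09 ± 0.45), from 130 and 23 UMIs. Its medians were 1.54 CPM in Pyra-like and 1.36 CPM in InN-like nuclei. SYT2 thus passed the filter through its Gran-like level, and the fold is a description and no test. SYT4 was highest in Pyra-like nuclei, at 88.3 to 236 CPM against 26.1 to 76.7 CPM in Gran-like nuclei (1.49 ± 0.13). SYT1 was highest in Pyra-like and InN-like nuclei, whose medians of 3429 and 3163 CPM did not differ by the test (adjusted p = 0.47, edgeR), and lowest of the 3 in Gran-like nuclei at 1776 CPM.

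CPLX1, a complexin, differed between all 3 classes, with 3.22 to 7.95 CPM in Gran-like, 11.2 to 39.0 CPM in Pyra-like and 49.2 to 64.0 CPM in InN-like nuclei. The 3 ranges were apart, and the log2 fold changes were 2.31 ± 0.26 for Pyra-like and 3.45 ± 0.24 for InN-like over Gran-like nuclei. Without the upper limit on genes, the CPLX1 value for Pyra-like over Gran-like nuclei was 1.33 (adjusted p = 0.00034, edgeR). In total 7 members exceeded both other classes in Gran-like nuclei (among them NSF, ERC2 and SYN3), 6 in Pyra-like nuclei (among them SNAP25, RIMS2 and VAMP1) and 4 in InN-like nuclei (VAMP2, SV2C, PCLO and CPLX1). The matching share over all features was not computed, so these counts describe the members and are no test of them. SYN1, AMPH and UNC13A exceeded neither other class where they were highest.

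**Figure D4:**
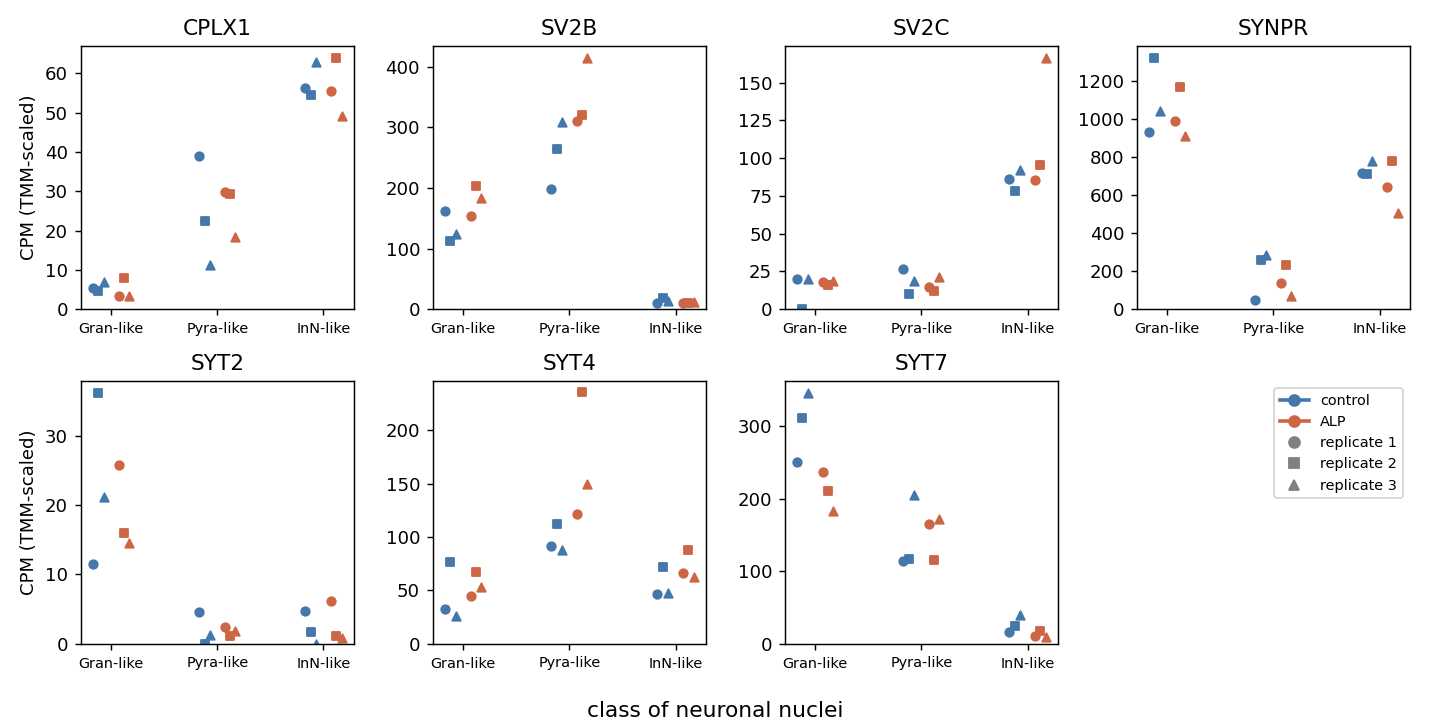
TMM-scaled CPM (y axes, from 0) of 7 members by neuronal class (x axes), each point a library. SV2B and SYT7 are lowest and SV2C and CPLX1 highest in InN-like nuclei, and SYNPR and SYT2 are highest in Gran-like nuclei.

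Between ALP and control TSs the machinery differed little by the test. Members and classes gave 172 tested pairs, and 1 was called: VAMP2 was higher in Oligo-like nuclei of ALP TSs, where 1.88% of features were called higher. The features called between ALP and control made up 4.79% of those tested in Oligo-like nuclei, 1.61% in OPC-like, 2.06% in Gran-like, 0.353% in Micro-like and 0.128% in Astro-like nuclei, and none in Endo-like, Pyra-like and InN-like nuclei (0% each in edgeR, where 91, 2282 and 2358 features had an unadjusted p under 0.05; DESeq2 called 1, 284 and 473). At an unadjusted p under 0.05 stood 25 of the 172 pairs, 14.5%, against 17.6% of all features. DESeq2 also called 1 pair, beside 1808 of 74192 over all features, with 21 pairs (12.2%, against 12%) at an unadjusted p under 0.05. The median log2 fold change of the members lay between -0.11 and 0.15 in the classes other than Micro-like, where it was 0.46 over 19 members, beside a median over all features near 0 in every class. The Micro-like median was 0.16 without Control 1, 0.71 without Control 2, 0.26 over 23 members without the upper limit on genes and 0.30 over 11 members without the deep cluster.

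VAMP2 in Oligo-like nuclei had 67.9, 67.6 and 57.4 CPM in Control 1 to 3, from 233, 17 and 134 UMIs. It had 132, 104 and 114 CPM in ALP 1 to 3, from 180, 195 and 216 UMIs. Every ALP library lay above every control library, and the log2 fold change was 0.87 ± 0.19 (adjusted p = 0.024, edgeR). After thinning to 1000 UMIs, 5.13 to 6.75% of control and 9.39 to 11.5% of ALP Oligo-like nuclei held a UMI (9.31 to 10.1% and 12.2 to 13.7% unthinned). With LINC-FRMD8-1 left out of the totals the log2 fold change was 0.87 (adjusted p = 0.023). The call was lost without Control 3 (0.77, adjusted p = 0.14), without ALP 1 (0.82, adjusted p = 0.12) and without ALP 3 (0.91, adjusted p = 0.13), each time with the same direction.

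The Oligo-like class was not made of the same clusters in both groups. A cluster of 1942 nuclei with KLK6 among its leading genes made up 1.97, 18.2 and 4.89% of Oligo-like nuclei in Control 1 to 3 and 48.4, 26.3 and 52.9% in ALP 1 to 3. By plain CPM, VAMP2 in this cluster had 99.4, 20.1 and 75.1 CPM in control libraries, from 6, 1 and 8 UMIs, and 149, 106 and 106 CPM in ALP libraries. In the other Oligo-like nuclei it had 67.6, 77.2 and 58.1 CPM in Control 1 to 3 and 96.9, 101 and 108 CPM in ALP 1 to 3. The groups were apart in those other nuclei too, but with the KLK6-led cluster left out VAMP2 was no longer called (log2 fold change 0.71 ± 0.19, adjusted p = 0.074, edgeR), and no pair was.

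VAMP2 pointed the same way in other classes without passing the test. In OPC-like nuclei it had 29.7, 32.8 and 35.7 CPM in control and 65.0, 48.2 and 83.1 CPM in ALP libraries (log2 fold change 0.99 ± 0.26, adjusted p = 0.085). Gran-like nuclei held 24.4, 28.8 and 27.2 CPM against 44.8, 50.5 and 40.9 CPM (0.80 ± 0.24, adjusted p = 0.10). The groups were apart in both classes, whereas they overlapped in the remaining 5. In the low-depth clusters, by plain CPM, VAMP2 had 129, 370 and 94.6 CPM in Control 1 to 3 and 295, 283 and 462 CPM in ALP 1 to 3. The level there thus also ran higher in ALP libraries than in Control 1 and 3. The part of such RNA in the Oligo-like level was not tested.

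BSN, a scaffold of the active zone, had lower values in the neurons of ALP TSs than of control TSs, with a difference that missed the threshold. In Pyra-like nuclei it had 67.1, 74.4 and 89.2 CPM in control and 47.0, 44.0 and 39.6 CPM in ALP libraries (log2 fold change -0.81 ± 0.19, adjusted p = 0.11, edgeR). Gran-like nuclei held 68.5, 67.1 and 92.2 CPM against 48.1, 49.8 and 43.3 CPM (-0.71 ± 0.21, adjusted p = 0.099). The libraries of the groups were apart in the 3 neuronal classes and overlapped in Oligo-like, OPC-like and Astro-like nuclei.

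SNAP25 in InN-like nuclei had 400.2, 408 and 376 CPM in control and 502, 551 and 555 CPM in ALP libraries (log2 fold change 0.44 ± 0.12, adjusted p = 0.082). In Pyra-like nuclei, which the study marks by SNAP25, it had 573, 605 and 527 CPM against 631, 725 and 653 CPM (0.24 ± 0.16, adjusted p = 0.50). SYT1 there had 3263, 3743 and 3083 CPM against 2784, 3234 and 2735 CPM (-0.20 ± 0.18, adjusted p = 0.61), so its groups overlapped. In Astro-like nuclei SYT1 had 86.2, 192 and 198 CPM in control and 88.1, 114 and 89.1 CPM in ALP libraries (-0.69 ± 0.29, adjusted p = 0.26), and Control 1 lay below every ALP library. STXBP6 in Gran-like nuclei had 732, 585 and 618 CPM against 913, 929 and 892 CPM (0.49 ± 0.14, adjusted p = 0.10).

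SYN3, STXBP6 and ERC2 were among the lowest unadjusted p in Micro-like nuclei, all with higher ALP means. SYN3 had 89.3, 81.4 and 87.0 CPM in control and 203, 155 and 183 CPM in ALP libraries (log2 fold change 1.03 ± 0.23, adjusted p = 0.064). STXBP6 had 308, 302 and 226 CPM against 509, 553 and 434 CPM (0.85 ± 0.22, adjusted p = 0.12), and ERC2 had 131, 407 and 185 CPM against 501, 391 and 507 CPM (1.16 ± 0.33, adjusted p = 0.14). The deep cluster made up 7.77, 22.2 and 8% of Micro-like nuclei in Control 1 to 3 and 17, 13.6 and 21.1% in ALP 1 to 3. With it left out, the log2 fold change of ERC2 was 0.47 (adjusted p = 0.77), that of STXBP6 was 0.63 (adjusted p = 0.30), and SYN3 no longer passed the filter on low counts.

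**Figure D5:**
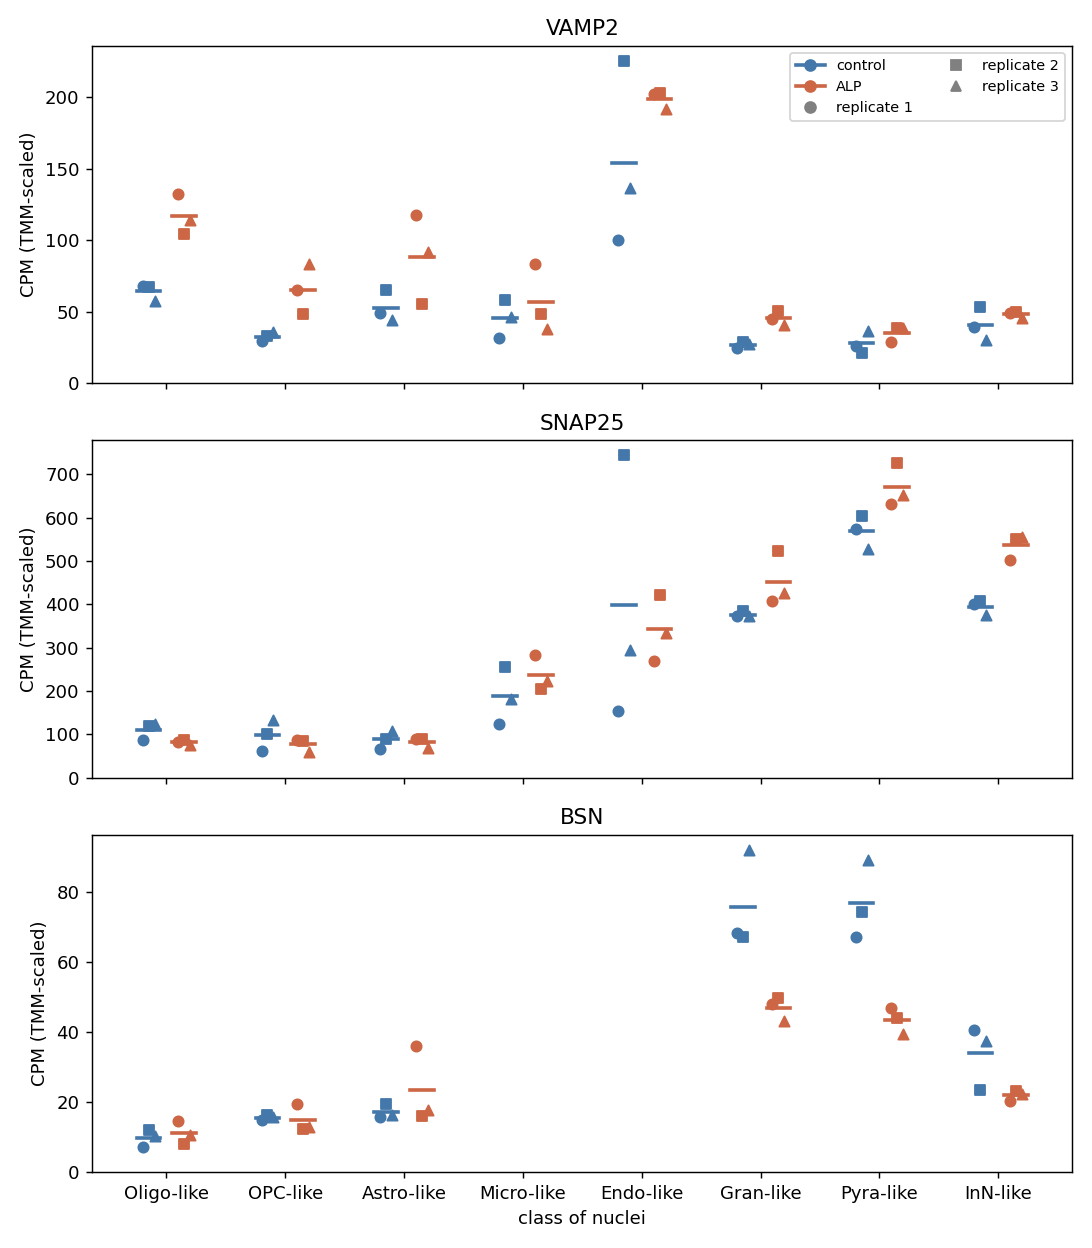
TMM-scaled CPM (y axes, from 0) of VAMP2, SNAP25 and BSN in each class (x axis) by library, control in blue and ALP in orange, with lines at the mean of 3 and shapes for the replicate number. The groups are apart for VAMP2 in Oligo-like, OPC-like and Gran-like nuclei and for BSN in the 3 neuronal classes, and BSN is not shown where it was too low to test.

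In all, the libraries of the 2 groups did not overlap for 30 of the 172 pairs. By class these were 4 of 22 members in Oligo-like (18.2%, beside 22.8% of all features), 3 of 19 in OPC-like (15.8%, beside 18.7%), 2 of 19 in Micro-like (10.5%, beside 16.5%), 0 of 21 in Astro-like (beside 21.9%), 0 of 7 in Endo-like (beside 10.7%), 6 of 27 in Gran-like (22.2%, beside 22.3%), 8 of 28 in Pyra-like (28.6%, beside 21.8%) and 7 of 29 in InN-like nuclei (24.1%, beside 24.4%). The members' shares were thus near or below the background in each class except Pyra-like, where they were above it by under 7 percentage points.

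The level of the members in glia relative to neurons was compared between the groups by a two-sided exact permutation test, whose smallest p for 3 against 3 is 0.1, so that it could not pass 0.05. Oligo-like nuclei gave 13.5 ± 2.77% (SD, n = 3) for control and 12.5 ± 0.66% for ALP TSs (exact p = 0.6), and OPC-like nuclei 23.2 ± 2.96% and 23.1 ± 0.68% (exact p = 1). In Astro-like nuclei it was 13.1 ± 2.45% and 11.2 ± 0.82% (exact p = 0.4), in Micro-like nuclei 35.3 ± 11.6% and 45.3 ± 5.08% (exact p = 0.3), and in Endo-like nuclei 22.7 ± 6.4% and 24.6 ± 6.29% (exact p = 0.8, permutation). With the deep cluster left out, the Micro-like values were 20.9 ± 3.77% and 23.1 ± 0.79% (exact p = 0.4), and with marked doublets left out they were 35.5 ± 11.5% and 45.7 ± 4.64% (exact p = 0.2). The libraries of the groups overlapped in all 5 classes, but stood apart in Oligo-like and Astro-like nuclei without Control 1 (differences of -2.46 and -3.20 percentage points) and in Micro-like nuclei without Control 2 (16.5 percentage points). With LINC-FRMD8-1 left out of the totals, ALP minus control was -2.02 in Oligo-like, -1.71 in OPC-like and -2.61 in Astro-like nuclei. It was 6.08 in Micro-like and -1.35 in Endo-like nuclei, and the groups overlapped in each class.

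Of 59 other genes of vesicle release and retrieval found in the files, 55 were tested between neuronal and glial nuclei. Of these 46 were called, 35 of them higher in neuronal nuclei. Over all 17481 features tested, 66.6% were called and 33.9% were called higher in neuronal nuclei. RPH3A (rabphilin, a binding partner of RAB3), STXBP5L and SLC17A6 (a vesicular glutamate transporter) were among those with large folds, with log2 fold changes of 4.35 ± 0.27, 3.19 ± 0.14 and 2.82 ± 0.28. SYT10, BIN1 (amphiphysin 2), SYPL1 and DNM3 were higher in glial nuclei, with -2.52 ± 0.24, -1.75 ± 0.12, -1.51 ± 0.11 and -1.43 ± 0.17 (adjusted p of 1.4e-06, 1.1e-07, 2.1e-07 and 1.1e-05, edgeR). Between ALP and control, SYT10 in Oligo-like nuclei was the only call among these genes and the 8 classes, higher in ALP TSs by 1.06 on the log2 scale (adjusted p = 0.039, edgeR). In that class 1.88% of all features were called higher in ALP. SYT10 was a leading gene of the KLK6-led cluster. With that cluster left out the log2 fold change was 0.69 (adjusted p = 0.13), and the call was also lost with the replicate block (adjusted p = 0.073) and without Control 1, Control 3, ALP 1 or ALP 3 (adjusted p of 0.068, 0.11, 0.13 and 0.18).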

How the data were processed

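The authors deposited raw counts of UMIs per feature and nucleus barcode from Cell Ranger. The labels name version 3.1.0 and the matrix headers 6.1.2, after alignment to a TreeshrewDB genome whose build, strand and intron use are not given in the sources used here. Nuclei with over 200 and under 2500 genes and under 5% mitochondrial UMIs were kept. Totals per library were 19182981 to 35898940 UMIs, or 4159545 to 15412799 in kept nuclei. At most 0.465% of barcodes were shared between libraries.

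Clustering used scanpy 1.11.5 and leidenalg 0.10.2 (2000 variable genes, 30 components, 20 neighbours, resolution 2, no batch correction). Naming thresholds were set after seeing the data (at least 3 markers in at least 3% of nuclei at 1.5-fold, under 15% doublets). Doublets were scored by simulation and left out only as an alternative.

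UMIs were summed per library and class (at least 10 nuclei) and tested across all features by edgeR 4.0.16 under R 4.3.3 (minimum count 10, Benjamini-Hochberg over all features), with DESeq2 1.42.0 as an alternative, and ratios with scipy 1.17.1. The fits were tested on simulated data. SE is the log2 fold change over the root of F.

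The members, other vesicle genes and tests were chosen with earlier results of these data known. Named are: called pairs of member and class and those of smallest p up to 10, the 5 largest and 5 smallest neuronal folds, the 2 largest folds each way per neuronal pair, the 6 smallest p among glia, and, from genes the study names, SYT1 in Astro and SNAP25 and SYT1 in Pyra. Others are named as examples after their values were seen.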

Additional observations from a re-analysis of the deposited data

Results flagged for a closer look

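Rows outside the members held many UMIs: SYT11li1 had 3665 in neuronal and glial nuclei against 0 for SYT11, RIMS1li1 40969 against 36 for RIMS1, UNC13Ali1 3439 against 1029 for UNC13A, UNC13Cli1 1489 against 267 for UNC13C, and DNM1li1 3848 against 0 for DNM1. SYT11li1 was higher in glial than in neuronal nuclei, with medians of 76.8 and 56.2 CPM, while RIMS1li1 had medians of 389 and 954 CPM. By class, RIMS1li1 had medians of 546.5 CPM in Oligo-like, 437 in OPC-like, 400 in Micro-like, 147 in Astro-like and 143 in Endo-like nuclei.

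The low-depth clusters, which lie outside the named classes, held members at 73.6, 79.9 and 72.1% of the neuronal level in Control 1 to 3 and at 84.6, 86.8 and 84.1% in ALP 1 to 3. With LINC-FRMD8-1 left out of the totals the values were 72.4, 75.4 and 79.9% in control and 71.9, 81.7 and 68.6% in ALP libraries, and the groups overlapped.

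SNAP25 pointed in opposite directions in different classes, each with every ALP library on one side of every control library. Its ALP means were higher in Gran-like (452 against 376 CPM), Pyra-like (669.5 against 568 CPM) and InN-like nuclei (535.7 against 395 CPM), and lower in Oligo-like nuclei (82.3 against 110.2 CPM). SYN3 had a higher ALP mean in Micro-like nuclei (180.3 against 85.9 CPM) and a lower one in InN-like nuclei (183.9 against 205 CPM). None of these pairs passed the adjusted threshold, and the difference between classes was not tested.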

How the results depend on the processing

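Of the 172 pairs, 1 was called between ALP and control, beside 939 of 74192 pairs of any feature and class. The count was 6 of 258 without a filter on low counts, beside 6036 of 292461 over all features. It was 5 of 185 without the upper limit on genes, beside 1974 of 95345. With the replicate block it was 0, beside 177 of 74192, and the adjusted p of VAMP2 in Oligo-like nuclei was 0.062 (edgeR). The count was also 0 with the KLK6-led cluster left out of the Oligo-like class, beside 668 of 72351. Leaving out 1 library gave 0 to 6 calls. Without Control 1 the count was 4 of 175, beside 1633 of 77924 over all features. Without Control 2 it was 6 of 178, beside 2718 of 83307. It was 0 without Control 3, ALP 1 or ALP 3, beside 60 of 77108, 7 of 81350 and 5 of 81084. The replicate numbers gave no clear sign of pairing: same-numbered deviations correlated at -0.217 to 0.198, and 3 of 24 correlations exceeded 0.1. Weak correlations cannot show that the libraries were not handled in numbered pairs. The block was fitted to ALP against control only, since the other comparisons already block on the library.

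Alternatives also turned the sign of differences in the glia-to-neuron level (ALP minus control, percentage points). The OPC-like difference of -0.088 became 0.113 without the upper limit, and ranged from -1.46 to 1.48 with 1 library left out. The Oligo-like difference ranged from -2.46 to 0.302 with 1 library left out. The Endo-like difference of 1.85 became -9.12 with thinned detection, -10.5 with other neuron genes and -1.35 with LINC-FRMD8-1 left out of the totals, and ranged from -1.03 to 5.42 with 1 library left out. The cause was not tested.

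Leaving out LINC-FRMD8-1, the deep Micro-like cluster and the KLK6-led cluster were alternatives chosen after seeing the data. With members and rows named after them kept among the clustering genes, 0 members were variable enough to be used, but the clusters changed: 464 nuclei with granule cell markers went unnamed for marked doublets, and 102 features in place of 216 were called in Gran-like nuclei. Few UMIs limit what can be said of CPLX3, STX1A, UNC13B and RIMS1, and of Endo-like nuclei.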
